A study of Mus musculus with 4 samples.

Results

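The cell cycle genes described here are 44 mouse genes whose products copy DNA, make its building blocks, drive a cell from one phase to the next or separate the chromosomes. The rule that picks them is a list of symbols, written with earlier results of these data known, and all 44 were among the 21739 gene symbols of the count tables and were listed in each of the 4 libraries. By known role, 18 members were placed in S phase and 23 in G2 or mitosis (G2/M), while Stmn1, Hmgb2 and Tubb4b, which cells also use outside division, were kept apart as 3 broad members.

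All 4 libraries came from skin of C57/BL6j mice aged 6 weeks, for which the labels name no engineered allele. Per the study's methods, each mouse had an 8 mm wound through the full thickness of the skin, and tissue from around it was taken on day 7. The 2 libraries titled Control came from mice given phosphate-buffered saline under the skin beside the wound every 48 h, and the 2 titled hucMSC-Exo from mice given exosomes, small membrane vesicles shed by human umbilical cord mesenchymal stem cells, on the same schedule. Sequencing took 2 mice a group, so each library is read as 1 mouse, and p-values between groups measure the spread between mice, in which technical spread between libraries cannot be told apart.

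Droplet sequencing tagged each captured mRNA with a unique molecular identifier (UMI) near its 3′ end, and a level is given as counts per 1000000 UMIs (CPM), summed over the cells named and not scaled by gene length. Values of the 4 libraries follow the order Control 1, Control 2, hucMSC-Exo 1 and hucMSC-Exo 2. These held 1098, 2422, 1539 and 2119 cells with 6657095, 16950639, 8198377 and 10270615 UMIs, of which 1058, 2353, 1491 and 2070 cells (6972 in all) passed the filters on detected genes and mitochondrial share. Median UMIs per kept cell were 4637.5, 5026, 3875 and 3909.5. Any pair of libraries shared 0 to 2 cell barcodes. Ptprc, the gene of the leukocyte antigen CD45, had a UMI in 88.1, 84.6, 82.0 and 84.3% of kept cells, and 0 cells carried an endothelial gate, so values over all kept cells describe mostly immune cells.

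Libraries stood apart in several ways that bear on the members. Every direction between groups rests on the sample titles, because letters inside the deposited file names instead place Control 1 and hucMSC-Exo 1 in the same group and Control 2 and hucMSC-Exo 2 in the other. Neutrophils (45, 318, 82 and 515) and monocytes/macrophages (251, 679, 335 and 427) were more numerous in Control 2 and hucMSC-Exo 2, as the letters group them, and so were kept cells overall. Il17f over all kept cells, at 35.7, 69.0, 173 and 272 CPM, and Cxcl10 in DETC, at 7.40, 8.93, 82.8 and 43.15 CPM, instead went with the titles, but both are named here because a test by title called them. Which grouping is right was not tested, so a direction between hucMSC-Exo and Control holds for the titles only. The tissue field of the labels names a part of the small intestine for Control and the distal colon for hucMSC-Exo, while the cell type field and the protocol name skin, and 342 cells carried a keratinocyte gate. In the neutrophils of Control 1, the S-phase members summed to 717 CPM and the G2/M members to 1265 CPM, and without 1 cell of more than 3000 detected genes, which held 39 members, these sums were 87.1 and 294 CPM.

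A dividing cell first makes nucleotides and loads the MCM helicase on its DNA, then copies the DNA in S phase with PCNA as the sliding clamp, and in G2 builds the cyclin B and CDK1 kinase that starts mitosis. Many of these genes are transcribed in waves, by E2F factors before S phase and by complexes that bind CHR elements before mitosis, and they are low in cells at rest. In healing skin, T cells, macrophages and keratinocytes can divide in place, whereas mature neutrophils are known as cells that no longer divide.

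Cells were placed in classes by the UMIs of marker lists that hold no cell cycle gene. Of the 6972 kept cells, 6025 got a class, 840 were tied between classes and 107 had too few markers. The γδ T cells were divided into a class with IL-17 markers (447 cells, Il17a in 79.0% and Blk in 79.9%) and dendritic epidermal T cells (DETC), the resident γδ T cells of mouse epidermis (1055 cells, Xcl1 in 85.0% and Nkg7 in 97.6%). The receptor gene Trdc was in every cell of both classes by construction, and the T cell gene Lck was in 2.91% of the IL-17 class and 61.6% of DETC. Other classes used here were αβ T cells (676), monocytes/macrophages (1692), neutrophils (960), natural killer (NK) cells (122), type 2 innate lymphoid cells (ILC2, 128) and dendritic cells (62). Krt5 of keratinocytes had a UMI in 43.2% of neutrophils and 43.6% of IL-17 γδ T cells, so RNA from outside the cell, or a second cell in the droplet, reached every class, and 1706 cells with a class also held 3 or more markers of a second lineage.

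The 44 members were mostly low genes with a few abundant exceptions. Over all kept cells, Hmgb2, a chromatin protein, led with 28787 UMIs and a mean of 719 ± 107 CPM (SD, n = 4), followed by Cenpa, the histone variant of centromeres, at 223 ± 73.3 CPM. Stmn1, which destabilises microtubules, averaged 146 ± 27.6 CPM, Pcna 115 ± 23.3 CPM and Tubb4b, a β-tubulin, 80.7 ± 8.62 CPM. At the low end stood the mitotic kinase Plk1 at 3.16 ± 0.811 CPM and the G1/S cyclin Ccne1 at 3.57 ± 1.32 CPM. Hmgb2 had a UMI in 78.2% of all kept cells, Cenpa in 44.3% and Top2a, the topoisomerase that untangles chromosomes, in 11.2%.

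Cells differed in how many members they held. The median kept cell held UMIs of 3 members, and 419 cells (6.01%) held 10 or more. Those cells, picked for the members they held, carried 14.4% of all UMIs, 55.7% of G2/M UMIs, 58.7% of S-phase UMIs and 39.3% of the UMIs of the broad members, which follows in part from the choice. They were also deeper, with a median of 10971 UMIs against 4083 in the other cells, and 33.7% of them held 3 or more markers of a second lineage against 23.9% of the others. How far depth and droplets with 2 cells enter the count of 10 members was not tested.

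Beside Top2a, members were seen together. In IL-17 γδ T cells, 89 cells had a Top2a UMI, and 42 of the 43 other members were more frequent in these than in the rest, with a median share of 24.7% against 2.24%. Ccne2, a cyclin of the G1/S step, was the exception (2.25% against 3.63%). Mki67, a coat protein of mitotic chromosomes and the gene of the Ki-67 proliferation marker, was in 50.6% against 6.15% of the cells without Top2a, and Cdk1 in 34.8% against 1.68%. Cenpa differed little (73.0% against 61.5%), as did Hmgb2 (92.1% against 84.4%). In DETC, αβ T cells, monocytes/macrophages and NK cells, 43 of 43 members were more frequent beside Top2a, with smallest ratios of 1.35 for Cenpa in DETC and of 1.08, 1.02 and 1.08 for Hmgb2 in the other classes. Without cells over 3000 genes the counts were 42 of 43 in IL-17 γδ T cells, 43 in DETC, 43 in αβ T cells, 41 in monocytes/macrophages and 40 in NK cells. In neutrophils 28 cells had Top2a and 40 of 43 were more frequent beside it, but without cells over 3000 genes, which left 26, only 17 of 43 were, with a median share of 0% against 0.540%. Beyond this limit on genes, how far the depth of a cell enters these counts was not tested.

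How many cells of a class held members depended on the class and on depth. With 3 or more members as the bar, the shares in IL-17 γδ T cells were 71.0, 67.6, 69.0 and 72.0%, and in DETC 59.4, 45.8, 59.2 and 51.0%. The IL-17 class was higher in 4 of 4 libraries, by a mean of 16.0 points (SD 6.27). αβ T cells stood at 76.5, 71.9, 72.5 and 69.9% and NK cells at 74.2, 76.0, 66.7 and 65.5%. Each of these was also above DETC in 4 of 4 libraries, a comparison chosen after the values were seen. Monocytes/macrophages held 72.9, 65.8, 66.0 and 50.4%, and neutrophils 13.3, 13.5, 6.098 and 13.2%. Median UMIs per cell ranged from 7086 to 9284 in monocytes/macrophages, from 3134 to 3866 in DETC, from 4009 to 5231 in IL-17 γδ T cells and from 1885.5 to 2185.5 in neutrophils.

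At equal depth the shares were lower in each of the 6 classes, and the myeloid classes came close to each other. Every cell was thinned to 1500 UMIs and shallower cells were left out, which kept 1006, 2206, 1401 and 1922 cells of the 4 libraries. The shares were then 41.9, 20, 39.4 and 25.1% in IL-17 γδ T cells and 24.4, 12.2, 30.8 and 18.1% in DETC, with the IL-17 class again higher in 4 of 4 libraries (mean difference 10.2 points, SD 4.93). Monocytes/macrophages were then near neutrophils, at 11.3, 10.9, 11.3 and 6.33% against 9.52, 6.12, 2.99 and 6.43%. Their difference, 52.2 points over all UMIs, was 3.68 points after thinning and had its sign in 3 of 4 libraries. αβ T cells held 28.4, 22.0, 31.8 and 30.3% and NK cells 35.5, 32.7, 36.4 and 35.7% at this depth.

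A bar of 10 members over all UMIs left fewer cells. NK cells then had the highest shares of the 6 classes compared in each library, 22.6, 22.0, 16.7 and 20.7%, from 31, 50, 12 and 29 cells. αβ T cells held 12.4, 9.38, 12.2 and 13.1%, IL-17 γδ T cells 9.68, 7.62, 16.0 and 10.9% and DETC 7.12, 2.97, 7.06 and 2.91%. IL-17 γδ T cells were above DETC in 4 of 4 libraries here too, from 31, 105, 100 and 211 cells. In Control 1 without cells over 3000 genes, 2 of 30 IL-17 γδ T cells (6.67%) stood against 17 of 307 DETC (5.54%). Monocytes/macrophages held 2.39, 6.19, 1.79 and 1.87% and stood highest in Control 2, where the class had 42 such cells. In neutrophils 3 of 960 cells (0.313%) passed, and 3 of these 3 also held 3 or more markers of a second lineage. Among Foxp3-positive αβ T cells 24 of 170 passed (14.1%), and among basophils, plasmacytoid dendritic cells and mast cells 0 of 77, 0 of 49 and 0 of 32 did.

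**Figure D1:**
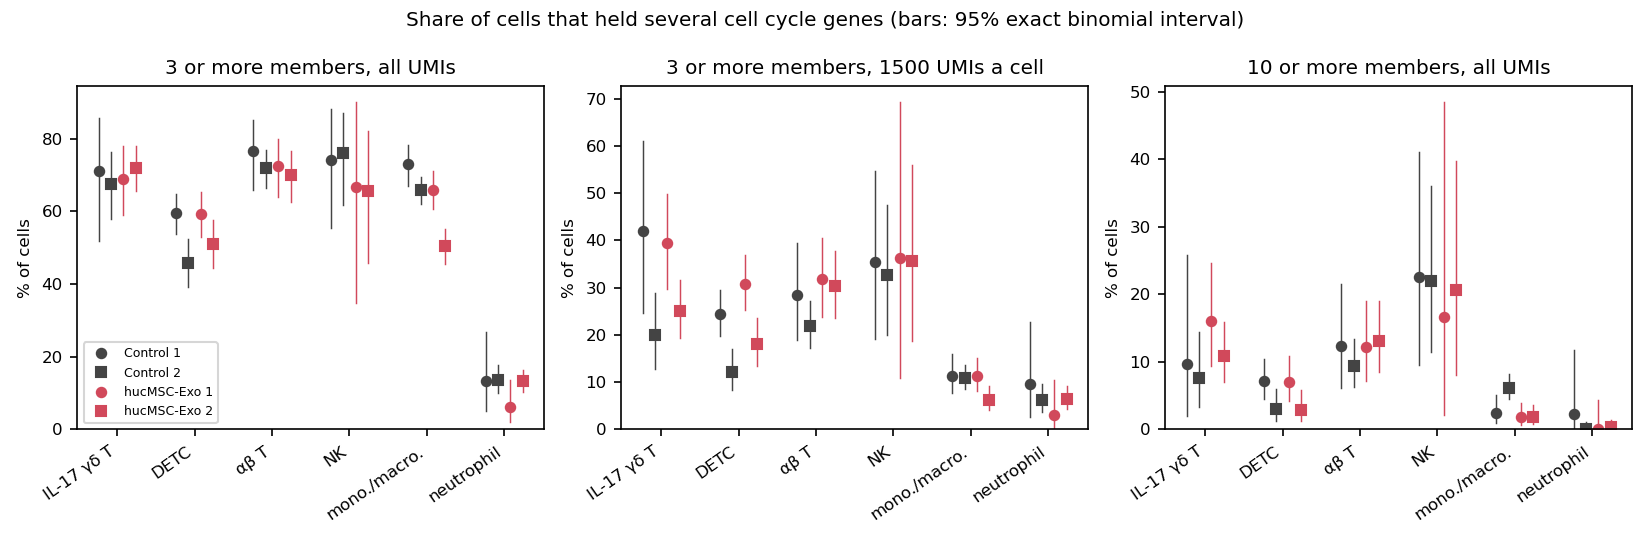
Percent of cells (vertical axes) with 3 or more members over all UMIs, with 3 or more after thinning to 1500 UMIs and with 10 or more over all UMIs, in 6 classes; each point is 1 library and each bar its 95% exact binomial interval, which covers counting error only. IL-17 γδ T cells sit above DETC in each library in all 3 panels, while monocytes/macrophages are at 50.4% or more over all UMIs and at 11.3% or less after thinning.

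An upper limit on detected genes acts on these cells. Of the 419 cells with 10 or more members, 186 had more than 3000 detected genes, and a limit at 3000 would remove 40.5%, 69.0%, 28.2% and 23.0% of them from the 4 libraries. The loss was largest in Control 2 and the groups did not overlap. Among all kept cells, 106 of 1058, 279 of 2353, 75 of 1491 and 69 of 2070 were over the limit, also a larger share in both Controls. The order of the losses is therefore no result about the cells with 10 or more members. Below the limit, cells with 10 or more members made up 4.62%, 2.31%, 5.23% and 3.35% of the cells, against 6.99%, 6.59%, 6.91% and 4.20% without it. The 2 Control libraries were therefore on either side of hucMSC-Exo 2 with the limit and both above it without. In monocytes/macrophages, 47 of the 62 cells with 10 or more members were over the limit.

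Among the replication genes, Pclaf, which binds the PCNA clamp, separated the classes widely. It stood at 95.9, 92.2, 124 and 129 CPM in IL-17 γδ T cells and at 65.9, 29.5, 73.4 and 14.1 CPM in DETC. The IL-17 class was higher in each library, most of all in hucMSC-Exo 2. Without cells over 3000 genes, of which Control 2 had 4 in the IL-17 class, its levels were 95.1, 33.9, 124 and 95.5 CPM against 58.8, 18.3, 73.5 and 15.4 CPM in DETC. In NK cells Pclaf reached 119, 154, 427 and 111 CPM, where hucMSC-Exo 1, with 12 cells, stood far above the others, and in neutrophils it was 152, 1.27, 19.6 and 7.96 CPM.

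The MCM genes encode the 6 subunits of the replicative helicase. Mcm5 was at 36.0, 24.7, 25.3 and 22.8 CPM in IL-17 γδ T cells, 24.2, 8.93, 18.9 and 13.1 CPM in DETC and 23.4, 22.3, 24.8 and 34.2 CPM in αβ T cells. DETC was the lowest of these classes in Control 2, hucMSC-Exo 1 and hucMSC-Exo 2, and the groups overlapped in DETC and the IL-17 class, while in αβ T cells both hucMSC-Exo libraries were above both Controls. In monocytes/macrophages Mcm5 was at 7.86, 18.3, 10.3 and 8.13 CPM, against 42.2, 0, 6.52 and 3.98 CPM in neutrophils. Mcm3 had its highest class mean in IL-17 γδ T cells (68.9 ± 18.0 CPM) and Mcm6 in NK cells (116 ± 24.7 CPM). In neutrophils the 11 replication genes had class means from 1.83 CPM (Mcm4) to 58.9 CPM (Pcna), with a median of 8.27 CPM against 32.2 CPM in IL-17 γδ T cells and 24.8 CPM in DETC.

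Pcna itself was broad. Its levels were 149.9, 120.2, 103 and 99.4 CPM in IL-17 γδ T cells, 141, 83.9, 118 and 98.3 CPM in DETC and 130.3, 151, 106 and 96.9 CPM in monocytes/macrophages. Controls were above both hucMSC-Exo libraries in the IL-17 class and in monocytes/macrophages, while in DETC the groups overlapped. In the IL-17 class this order was lost without cells over 3000 genes (122, 69.8, 103 and 93.8 CPM). Neutrophils held 135, 42.0, 19.6 and 39.0 CPM, with the high value in Control 1 and its 1 deep cell. Of the other replication genes, Gins2 (helicase activation), Uhrf1 (copying of DNA methylation) and Clspn (the replication checkpoint) had means of 7.68 CPM or more over all kept cells.

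The 4 genes of nucleotide synthesis had a median of 15.1 CPM over all kept cells. Tyms, which makes thymidylate, was at 18.0, 34.6, 21.1 and 19.6 CPM in IL-17 γδ T cells and 24.9, 27.7, 35.6 and 8.03 CPM in DETC. Groups overlapped in both classes, and neither class was higher throughout. Rrm2, the S-phase subunit of ribonucleotide reductase, was at 42.0, 24.7, 12.7 and 23.6 CPM in the IL-17 class and 34.3, 9.82, 15.7 and 1.00 CPM in DETC. It was lowest in hucMSC-Exo 2 of DETC, and the IL-17 class was higher in 3 of 4 libraries. Rrm1, the large subunit of the same enzyme, had its highest class mean in DETC (73.7 ± 12.3 CPM), where no other of the 44 members had its highest among the 8 classes compared, and NK cells were within its spread (73.1 ± 20.9 CPM). Tk1, the thymidine salvage kinase, averaged 12.2 ± 3.08 CPM over all kept cells.

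Among the genes of chromosome structure, Mki67 was higher in T cells than in monocytes/macrophages of each library. It was at 66.0, 115, 135 and 131 CPM in IL-17 γδ T cells and 72.0, 31.2, 87.0 and 34.1 CPM in DETC. Control 1 was the lowest library of the IL-17 class and the only one in which DETC was higher, but without cells over 3000 genes, at 67.9, 54.7, 135 and 103 against 31.4, 34.5, 89.3 and 37.5 CPM, Control 2 was the lowest and DETC was lower in 4 of 4 libraries. In αβ T cells Mki67 stood at 109, 61.9, 105 and 118 CPM and in monocytes/macrophages at 41.4, 24.2, 15.8 and 25.4 CPM. These αβ T cell values overlapped between groups, but not without cells over 3000 genes (60.2, 35.4, 92.4 and 70.5 CPM). In neutrophils it was 278, 7.63, 0 and 16.7 CPM, where 0 in hucMSC-Exo 1 allows up to 19.6 CPM (3 UMIs), and without the cells over 3000 genes Control 1 stood at 21.8 CPM.

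Top2a had a UMI in 19.9% of IL-17 γδ T cells and 10.3% of DETC. Its levels were 144, 117, 137 and 139 CPM in IL-17 γδ T cells, 106, 67.0, 136 and 64.2 CPM in DETC and 159, 228, 181 and 45.6 CPM in NK cells. DETC was high in Control 1 and hucMSC-Exo 1, but without cells over 3000 genes, at 72.1, 65.0, 138 and 68.4 CPM, only in hucMSC-Exo 1. In NK cells these levels were then 134, 25.7, 181 and 45.6 CPM, with Control 2 the lowest in place of the highest. Esco2, which ties sister chromatids together in S phase, had a mean of 6.45 ± 1.93 CPM over all kept cells, and its highest class mean was in neutrophils, on the Control 1 value alone.

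Hmgb2 was the member with the highest mean level in each of the 8 classes. In dendritic cells of hucMSC-Exo 1, however, Cenpa was above it (902 against 457 CPM). Hmgb2 stood at 1367, 1065, 1025 and 954 CPM in IL-17 γδ T cells, 869.6, 504, 628 and 559.9 CPM in DETC and 2521, 1191, 1473 and 962 CPM in neutrophils. Control 1 had the top value in all of these, and neutrophils, whose median cell held 1 member, were above DETC in each library. Monocytes/macrophages held the least, 459.6, 374, 461 and 381 CPM.

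The cyclins and Cdk1, the kinase they activate, had a median of 8.09 CPM over all kept cells. Cdk1 was at 12.0, 13.2, 23.2 and 26.9 CPM in IL-17 γδ T cells, 21.5, 8.93, 17.8 and 12.0 CPM in DETC and 23.4, 18.5, 34.1 and 33.1 CPM in αβ T cells. The hucMSC-Exo libraries were above both Controls in the IL-17 class and in αβ T cells, while the groups overlapped in DETC. Ccna2, the cyclin of S phase and G2, was at 6.00, 9.88, 23.2 and 17.1 CPM in the IL-17 class and 12.1, 10.7, 24.1 and 10.0 CPM in DETC. Control 1 of the IL-17 class had 1 UMI, where 3 would be 18.0 CPM, so no order of the groups is read there, and they overlapped in DETC. Ccnb1, the cyclin that starts mitosis, was at 0, 1.65, 6.33 and 1.63 CPM and 7.40, 5.36, 3.14 and 2.01 CPM, and 0 in Control 1 of the IL-17 class allows up to 18.0 CPM. Over all kept cells the 6 members of this role ran from 3.57 CPM (Ccne1) to 17.5 CPM (Cdk1).

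The 10 members that run mitosis as kinases, checkpoint proteins or parts of the anaphase-promoting complex had class medians of 10.5 CPM in IL-17 γδ T cells, 11.3 CPM in DETC, 12.2 CPM in αβ T cells and 4.88 CPM in monocytes/macrophages. Ube2c, the ubiquitin-conjugating enzyme of that complex, led them over all kept cells at 32.7 ± 7.94 CPM. Its levels in IL-17 γδ T cells were 6.00, 24.7, 50.6 and 40.7 CPM. Both hucMSC-Exo libraries were above both Controls there. Birc5 and Cdca8, which carry Aurora B to the centromere, averaged 28.3 ± 5.40 and 17.4 ± 4.48 CPM over all kept cells. Aurkb, that kinase, averaged 6.81 ± 0.400 CPM, Bub1 and Bub1b of the spindle checkpoint 4.34 ± 1.32 and 8.04 ± 1.47 CPM, and Cdca3, a trigger of mitotic entry, 18.1 ± 5.53 CPM. Cdc20, which activates the complex, averaged 6.84 ± 1.44 CPM and the spindle pole kinase Aurka 3.58 ± 1.11 CPM.

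Among the centromere and spindle genes Cenpa was far above the other 6, whose means over all kept cells were at most 22.0 CPM (Kif23). Its levels were 174, 341, 386 and 324 CPM in IL-17 γδ T cells, 196, 367, 502 and 389 CPM in DETC and 81.5, 217, 234 and 189 CPM in monocytes/macrophages. Control 1 was the lowest library in each of these classes and hucMSC-Exo 1 the highest. Cenpa also had its highest class mean in dendritic cells (476 ± 316 CPM), where 4 of the 7 members of this role had no UMI in 62 cells. Its levels there were 171, 507.5, 902 and 322 CPM from 5, 28, 9 and 20 cells, highest in the 9 cells of hucMSC-Exo 1. Among the others Nusap1, Tpx2, Kif11, Cenpe and Cenpf, all of the spindle or the kinetochore, averaged between 8.88 and 17.1 CPM over all kept cells.

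Kif23, a motor of the last step of division, had its highest class mean outside the T cells. It was at 84.3, 35.6, 58.6 and 41.4 CPM in neutrophils and 19.9, 5.62, 6.60 and 7.48 CPM in monocytes/macrophages. Neutrophils were the class with its highest mean, above monocytes/macrophages in each library, and a UMI was in 17.8%, 8.18%, 9.76% and 9.13% of their cells. In hucMSC-Exo 2, however, αβ T cells stood above them at 46.6 CPM, and in Control 2 NK cells were level with them at 35.7 CPM. Without cells over 3000 genes the neutrophil levels were 76.2, 38.0, 58.6 and 43.2 CPM, and in cells with and without Top2a Kif23 then had a UMI in 7.69% and 9.18%.

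Of the 2 microtubule genes not limited to mitosis, Stmn1 had its highest class means in lymphoid cells. It was at 306, 193, 352 and 258 CPM in IL-17 γδ T cells, 269, 109, 270.3 and 105 CPM in DETC and 41.0, 82.3, 59.0 and 40.7 CPM in monocytes/macrophages. DETC was high in Control 1 and hucMSC-Exo 1, as the letters in the file names group them, also without cells over 3000 genes (217, 92.4, 261 and 112.5 CPM). The groups overlapped in all 3 classes, though in monocytes/macrophages not without those cells (20.1, 20.7, 31.0 and 27.0 CPM). In neutrophils it was 346, 12.7, 45.6 and 42.2 CPM, high only in Control 1 with its deep cell. Tubb4b had class means from 47.7 CPM in monocytes/macrophages to 122 CPM in NK cells.

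**Figure D2:**
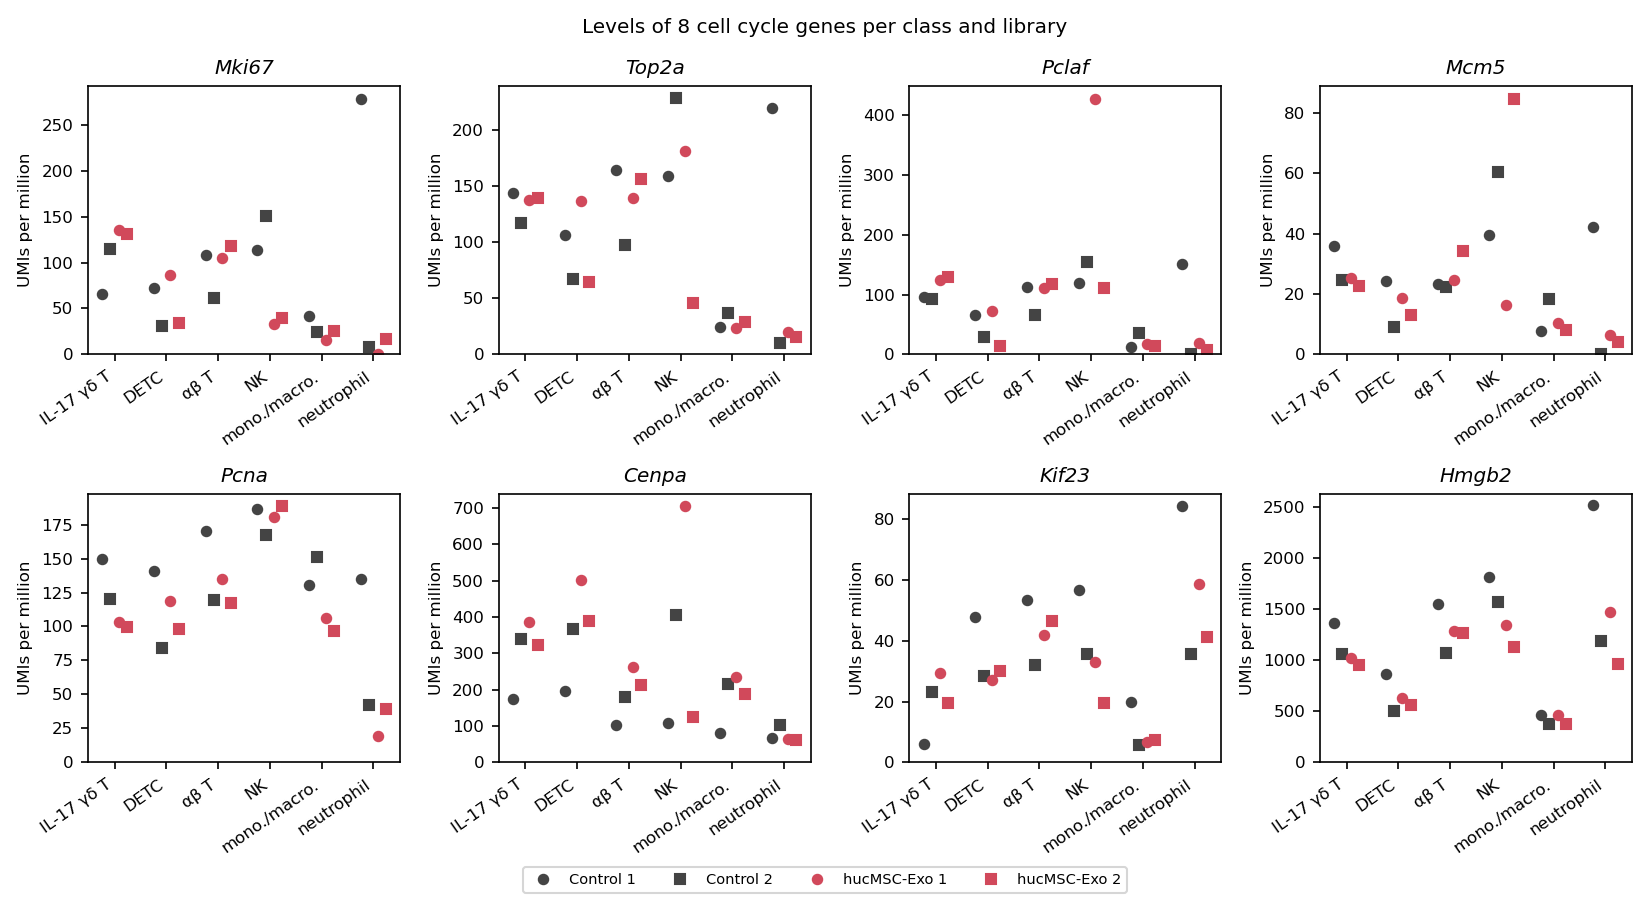
Levels of 8 members in CPM (vertical axes) in 6 classes; each point is 1 library. Mki67 and Top2a in neutrophils are at 19.6 CPM or below in 3 libraries and at 278 and 219 in Control 1, while Kif23 and Hmgb2 are high in neutrophils of all 4.

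Which members differ between the γδ T cell classes was tested within libraries with edgeR. Of 36 members that passed the filter on low counts (8 did not), 11 had an adjusted p under 0.05, which is 30.6%, while among all 7334 genes tested 3179 did (43.3%). The members' share was thus below that of all genes and is no result about the set. By direction 10 of the 11 were higher in IL-17 γδ T cells and 1 lower, whereas over all genes 46.4% of the calls were higher (35.6% with library sizes as the only scaling, which moved the median of all genes from −0.04 to −0.19 log2). The median log2 ratio of the tested members was 0.56 and 32 of 36 were above 0, which describes only the members that passed the filter. Among the 10 higher calls, Cdca8, Mcm5 and Rrm2 passed it through the IL-17 class alone. DESeq2 called 6 members among 2366 genes called.

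The called members came from 5 of the 7 roles. Mcm3 stood at 83.9, 49.4, 84.3 and 57.8 CPM in the IL-17 class and 41.0, 12.5, 52.4 and 32.1 CPM in DETC, higher in the IL-17 class in each library. Pclaf was higher in IL-17 γδ T cells by log2 1.61 (SE 0.27, adjusted p = 2.80e-05), in 4 of 4 libraries. Mki67 was higher by log2 1.32 (SE 0.24, adjusted p = 7.30e-05), in 3 of 4. These 2, with Mcm3 at log2 1.17 (SE 0.22, adjusted p = 1.40e-04) and Hmgb2 at log2 0.93 (SE 0.11, adjusted p = 2.07e-07), both higher in 4 of 4 libraries, were called under all 13 alternatives run. Stmn1 was higher by log2 0.81 (SE 0.16, adjusted p = 2.20e-04) and Top2a by log2 0.74 (SE 0.18, adjusted p = 0.00200), both in 4 of 4 libraries. Each lost its call under 1 alternative, Stmn1 without the library block and Top2a after thinning to 1500 UMIs (log2 0.53, adjusted p = 0.163).

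The remaining 5 calls were lost under several alternatives, DESeq2 and single libraries left out among them. Cdca8 kept its call in 9 of the 11 alternatives that tested it, Mcm5 in 7 of 12, Mcm6 in 8 of 13, Rrm1 in 8 of 13 and Rrm2 in 6 of 12. A library left out leaves 3 libraries with both classes. In DETC of Control 2, Cdca8, Mcm5 and Rrm2 fell short of the filter on low counts. They passed it through the IL-17 class alone, and nothing is read from their calls. Cdca8 levels were 36.0, 18.1, 42.2 and 40.7 CPM in the IL-17 class against 33.6, 9.82, 21.0 and 17.1 CPM. It was at log2 1.01 (SE 0.28, adjusted p = 0.00446), higher in 4 of 4 libraries, and at log2 0.80, adjusted p = 0.0746 without hucMSC-Exo 2. Mcm5 was at log2 0.93 (SE 0.30, adjusted p = 0.0157), in 4 of 4, and lost its call without Control 2 (log2 0.75, adjusted p = 0.106) or hucMSC-Exo 2 (log2 0.91, adjusted p = 0.0613). Mcm6, at 72.0, 49.4, 48.5 and 45.6 against 54.5, 23.2, 39.8 and 31.1 CPM, gave log2 0.72 (SE 0.22, adjusted p = 0.0103) in 4 of 4 libraries and was not called without Control 2 (log2 0.56, adjusted p = 0.0886). The last 2 calls were of the subunits of ribonucleotide reductase. Rrm2 was higher by log2 1.19 (SE 0.41, adjusted p = 0.0230) in 3 of 4 libraries, with log2 1.11, adjusted p = 0.0890 without Control 2 and log2 0.61, adjusted p = 0.250 without hucMSC-Exo 2. Rrm1 was lower, at log2 −0.55 (SE 0.20, adjusted p = 0.0310), in 3 of 4 libraries (78.0, 36.2, 59.0 and 31.0 CPM in the IL-17 class against 76.7, 68.7, 89.1 and 60.2 CPM), and not called without Control 2 (log2 −0.46, adjusted p = 0.146), hucMSC-Exo 1 (log2 −0.59, adjusted p = 0.0702) or hucMSC-Exo 2 (log2 −0.46, adjusted p = 0.158).

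**Figure D3:**
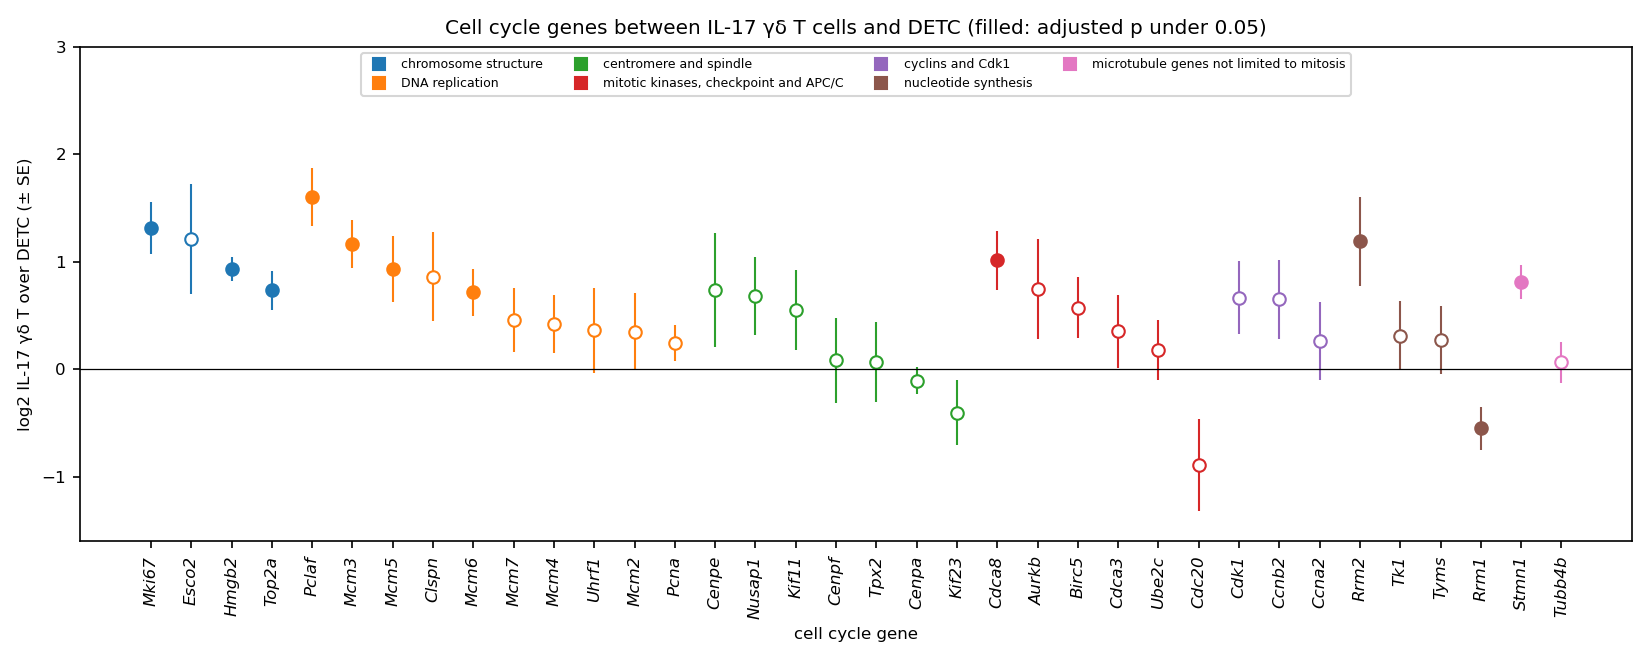
Log2 ratio of IL-17 γδ T cells to DETC with its standard error (vertical axis) for the 36 tested members, coloured by role, from 4 libraries; filled points have an adjusted p under 0.05. The called members run from −0.55 (Rrm1) to 1.61 (Pclaf), and 32 of 36 lie above 0.

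Of 73 other cell cycle genes on a list by role, 45 were tested between the same classes, 12 were higher in IL-17 γδ T cells and 9 lower. These 21 calls are 46.7%, near the 43.3% of all genes, so the count is no result about the list. Ccnd1, a D-type cyclin that carries growth signals to the cycle, was at 0, 0, 8.43 and 0.814 CPM in the IL-17 class and 44.4, 26.8, 56.6 and 59.2 CPM in DETC. With 5 UMIs in all in the IL-17 class it passed the filter through DETC alone, and nothing is read from its call. Wee1, which holds Cdk1 inactive, was lower by log2 −2.56 (SE 0.39, adjusted p = 6.63e-06) and the D-type cyclin Ccnd2 by log2 −1.39 (SE 0.14, adjusted p = 1.15e-08). Cdk1's partner Cks2 was higher by log2 1.92 (SE 0.18, adjusted p = 3.23e-09), and Cdc25b, which activates Cdk1, by log2 1.70 (SE 0.41, adjusted p = 0.00162). Wee1, Ccnd2 and Cks2 kept their direction in 4 of 4 libraries.

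Few members were called between IL-17 γδ T cells and αβ T cells. Among 32 members tested, 3 were called (9.38%), against 1291 of 5625 genes (23.0%), and the median log2 ratio was −0.16 against −0.03 over all genes. Cenpa was higher in the IL-17 class in 4 of 4 libraries, by log2 0.74 (SE 0.12, adjusted p = 6.96e-05), with 102, 181, 262 and 212 CPM in αβ T cells. This call was lost only without the library block (log2 0.75, adjusted p = 0.0568). Kif23 was at 6.00, 23.0, 29.5 and 19.6 CPM in the IL-17 class and 53.3, 32.1, 41.8 and 46.6 CPM in αβ T cells. It was lower in 4 of 4 libraries, by log2 −0.93 (SE 0.28, adjusted p = 0.0172), and it was not called by DESeq2 or without hucMSC-Exo 2 (log2 −0.76, adjusted p = 0.183). In Control 1 of the IL-17 class Kif23 fell short of the filter on low counts. It passed through αβ T cells alone, and nothing is read from its call. Mcm6 was lower in 4 of 4 libraries (72.0, 49.4, 48.5 and 45.6 against 83.1, 66.8, 66.6 and 88.0 CPM), by log2 −0.57 (SE 0.18, adjusted p = 0.0296), but lost its call in 8 of 13 alternatives, among them those without Control 2 (log2 −0.63, adjusted p = 0.0638), hucMSC-Exo 1 (log2 −0.57, adjusted p = 0.0636) or hucMSC-Exo 2 (log2 −0.36, adjusted p = 0.322). DESeq2 called 1 member among 802 genes called.

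Of the other cell cycle genes, 36 were tested between these classes, 4 were higher in IL-17 γδ T cells and 6 lower, and these 27.8% are near the 23.0% of all genes. Btg1, a brake on proliferation, was higher by log2 0.88 (SE 0.08, adjusted p = 5.39e-08) and the pocket protein Rbl2 by log2 0.67 (SE 0.17, adjusted p = 0.00652). Lin54, the DNA-binding subunit of the complex that reads CHR elements, was higher by log2 0.79 (SE 0.18, adjusted p = 0.00235). The G1 kinase Cdk6 was lower by log2 −0.76 (SE 0.19, adjusted p = 0.00402) and the D-type cyclin Ccnd3 by log2 −0.62 (SE 0.17, adjusted p = 0.0110). Each of these 5 had its direction in 4 of 4 libraries.

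Monocytes/macrophages were set against neutrophils as the class with little division. Among 25 members tested (19 were not), 7 were called (28.0%), against 4084 of 8250 genes (49.5%). Of all calls 54.0% were higher in monocytes/macrophages, and 71.8% with library sizes as the only scaling, under which the median of all genes moved from 0.24 to 0.68 log2 (−0.37 with DESeq2). Kif23 was lower in 4 of 4 libraries, by log2 −2.92 (SE 0.34, adjusted p = 7.79e-15), and so was Hmgb2, by log2 −2.12 (SE 0.29, adjusted p = 1.72e-11). Both were called under all 13 alternatives run. Tubb4b was at 46.3, 44.2, 52.1 and 48.1 CPM in monocytes/macrophages and 33.7, 77.6, 58.6 and 74.8 CPM in neutrophils. It was lower in 3 of 4 libraries, by log2 −0.90 (SE 0.29, adjusted p = 0.00640), and not called without Control 2 (log2 −0.56, adjusted p = 0.285) or hucMSC-Exo 2 (log2 −0.71, adjusted p = 0.190). Nor was it called by DESeq2 (log2 −0.65), with library sizes as the only scaling (log2 −0.48) or with no filter on low counts (log2 −0.64).

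The S-phase members called were Pcna, Mcm3 and Mcm4. Mcm3 and Mcm4 passed the filter on low counts through monocytes/macrophages alone, and nothing is read from their calls. Pcna was higher by log2 0.91 (SE 0.30, adjusted p = 0.00715) in 3 of 4 libraries, and not called without Control 2 (log2 0.83, adjusted p = 0.0809), hucMSC-Exo 1 (log2 0.76, adjusted p = 0.0506) or hucMSC-Exo 2 (log2 0.98, adjusted p = 0.0569). Mcm3 was at 14.5, 19.4, 13.2 and 9.43 against 25.3, 0, 6.52 and 1.59 CPM. Its neutrophil values rest on 3, 0, 1 and 2 UMIs, and in hucMSC-Exo 1 a count of 3 would be 19.6 CPM. Mcm4 was at 13.7, 13.8, 8.07 and 11.7 against 0, 2.54, 0 and 4.78 CPM. It was higher in Control 2 and hucMSC-Exo 2, while 0 in neutrophils of the other 2 libraries allows up to 25.3 and 19.6 CPM and shows no direction. The neutrophil values of Mcm4 rest on 0, 2, 0 and 6 UMIs. Cenpa, at 67.5, 103, 65.2 and 62.9 CPM in neutrophils, was higher in monocytes/macrophages in 4 of 4 libraries, by log2 0.84 (SE 0.30, adjusted p = 0.0119), and not called without hucMSC-Exo 1 (log2 0.69, adjusted p = 0.0713) or hucMSC-Exo 2 (log2 0.74, adjusted p = 0.142). DESeq2 called 4 members among 3797 genes called.

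Of the other cell cycle genes, 43 were tested between the myeloid classes, 11 were higher in monocytes/macrophages and 8 lower, and these 44.2% are below the 49.5% of all genes. Cks2 was at 90.6, 43.3, 36.3 and 51.4 CPM in monocytes/macrophages and 287, 348, 430.0 and 263 CPM in neutrophils, lower by log2 −3.03 (SE 0.30, adjusted p = 3.32e-20). Cdkn1b, the inhibitor p27, was lower by log2 −2.75 (SE 0.29, adjusted p = 2.80e-18), Ccnd2 by log2 −2.37 (SE 0.33, adjusted p = 3.26e-11) and the antiproliferative gene Btg2 by log2 −2.30 (SE 0.29, adjusted p = 1.67e-13). All 4 were lower in 4 of 4 libraries. The transcription factor E2f1 was also among the 5 largest, but with 2 UMIs over the neutrophils of 4 libraries it passed the filter through monocytes/macrophages alone, and nothing is read from its call.

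Between hucMSC-Exo and Control no member was called in any of the 7 populations fitted. Over all kept cells edgeR tested all 44 members and called 0, against 0 of 12561 genes (0%), with 0 members and 285 genes at an unadjusted p under 0.05, and DESeq2 called 2 genes (Il17f and Ptn), no member among them. The members' median log2 ratio was −0.04, against −0.02 over all genes, and 27 of 44 were below 0. In IL-17 γδ T cells 28 members were tested and 0 of 5109 genes called (0%), with 127 genes and 2 members at an unadjusted p under 0.05 and 0 calls by DESeq2. In DETC 35 members were tested and 0 of 7866 genes called (0%), with 336 genes and 1 member at an unadjusted p under 0.05 and 1 call by DESeq2 (Cxcl10). In αβ T cells 36 members were tested and 0 of 6696 genes called (0%), with 195 genes and 3 members at an unadjusted p under 0.05 and 1 call by DESeq2 (Il17f). In the αβ T cells 32 of the 36 tested members were above 0, with a median log2 of 0.30 against 0.00 over all genes.

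The remaining 3 populations gave no calls by edgeR either. Monocytes/macrophages had 37 members tested and 0 of 9326 genes called by edgeR, with 87 genes and 1 member at an unadjusted p under 0.05 and 0 calls by DESeq2. The members' median log2 there was −0.29 and 26 of 37 were below 0. Of the 62 cells of this class with 10 or more members, 47 were over 3000 genes, 34 of them in Control 2. Members were seen together in the same cells, so neither this count nor that of αβ T cells is one of independent genes. Neutrophils had 7 members tested and 0 of 3943 genes called by edgeR (43 genes and 0 members at an unadjusted p under 0.05, 0 calls by DESeq2). NK cells had 14 members tested and 0 of 2216 genes called by edgeR (72 genes and 1 member at an unadjusted p under 0.05, 1 call by DESeq2, Ifitm2).

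The 8 results at an unadjusted p under 0.05, of 7 members, are given as values only. In IL-17 γδ T cells these were Ube2c, at log2 1.16 (SE 0.46, unadjusted p = 0.0288, adjusted p = 1.00), and Kif11, a spindle motor, at log2 1.45 (SE 0.60, unadjusted p = 0.0346, adjusted p = 1.00). Kif11 stood there at 6.00, 9.88, 19.0 and 27.7 CPM, both hucMSC-Exo libraries above both Controls. In αβ T cells they were Cdk1 at log2 0.75 (SE 0.32, unadjusted p = 0.0458, adjusted p = 1.00), Cenpa at log2 0.69 (SE 0.28, unadjusted p = 0.0376, adjusted p = 1.00) and Cenpf, a kinetochore protein, at log2 1.57 (SE 0.65, unadjusted p = 0.0420, adjusted p = 1.00). Cenpf was at 32.0, 7.61, 24.8 and 59.0 CPM, and its groups overlapped. In DETC Cenpa was at log2 0.71 (SE 0.30, unadjusted p = 0.0357, adjusted p = 0.998), in monocytes/macrophages Tk1 at log2 −1.28 (SE 0.43, unadjusted p = 0.0231, adjusted p = 1.00), and in NK cells Mki67 at log2 −1.81 (SE 0.43, unadjusted p = 0.00395, adjusted p = 1.00). Mki67 of NK cells was at 113, 151, 32.9 and 39.1 CPM, both Controls above both hucMSC-Exo libraries, where hucMSC-Exo 1 had 2 UMIs and 3 would be 49.3 CPM. Without cells over 3000 genes it was at 73.55, 34.2, 32.9 and 39.1 CPM, and the groups overlapped.

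Some members passed only under an alternative. With all 4 libraries and no filter on low counts, Cenpf was called in αβ T cells (log2 1.57, adjusted p = 0.0379). The other calls came with a library left out, where the lone library of a group is assumed to vary like the other group. Without Control 2, Cenpa was called in IL-17 γδ T cells (log2 1.11, adjusted p = 0.0178), DETC (log2 1.31, adjusted p = 9.24e-04) and αβ T cells (log2 1.19, adjusted p = 0.00123), a comparison in which Control 1, the low library for Cenpa, is the only Control. DETC then also had Cenpf (log2 −1.34, adjusted p = 0.0440) and Rrm2 (log2 −1.91, adjusted p = 0.00571) called, and without Control 1 Mcm3 (log2 1.75, adjusted p = 0.0127). In αβ T cells Cenpf was called without Control 1 (log2 2.52, adjusted p = 1.38e-06) or hucMSC-Exo 1 (log2 1.99, adjusted p = 0.00366). In neutrophils without Control 2, where Control 1 with its deep cell is the only Control, Mki67 was called (log2 −4.01, adjusted p = 1.37e-04), and so were Stmn1, Top2a, Pclaf and Cdca8 (log2 from −4.25 to −2.66).

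The balance of G2/M to S-phase UMIs differed between the libraries by title group in some populations. Over all kept cells the S-phase members summed to 495, 436, 408 and 335 CPM and the G2/M members to 539, 604, 726 and 564 CPM. Both Controls were above both hucMSC-Exo libraries in S phase, and the groups overlapped in G2/M. Without cells over 3000 genes the S-phase sums were 433, 257, 369 and 294 CPM, with Control 2 below both hucMSC-Exo libraries, so the groups then overlapped. The G2/M to S ratio was 1.09, 1.39, 1.78 and 1.68, and without Cenpa, which was the main part of the difference between the Controls, 0.837, 0.834, 1.04 and 1.01. Both hucMSC-Exo libraries were above both Controls either way. Without cells over 3000 genes the ratios were 0.987, 1.611, 1.735 and 1.622 with Cenpa, where hucMSC-Exo 2 was nearly level with Control 2. They were 0.688, 0.607, 0.864 and 0.847 without it, again without overlap. With 2 libraries a group, 4 libraries divide in only 3 ways. An order without overlap is thus a weak description, for every such order given in this report. IL-17 γδ T cells gave 0.727, 1.37, 1.65 and 1.78 with Cenpa and 0.508, 0.813, 1.04 and 1.20 without it, and 0.728, 0.710, 1.04 and 1.135 without both Cenpa and the cells over 3000 genes, each time without overlap.

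In monocytes/macrophages, αβ T cells, NK cells and neutrophils overlap depended on Cenpa or on the deep cells. Monocytes/macrophages gave 1.02, 1.11, 1.60 and 1.81 with Cenpa, both hucMSC-Exo libraries above both Controls, and 0.699, 0.540, 0.620 and 0.856 without it, where the groups overlapped. In αβ T cells the groups overlapped at 1.11, 1.30, 1.30 and 1.49 with Cenpa and 0.990, 0.933, 0.933 and 1.19 without it, but not once cells over 3000 genes were left out (0.798, 0.632, 0.904 and 1.09 without Cenpa). NK cells overlapped at 0.749, 1.52, 1.07 and 0.336 with Cenpa. Without Cenpa both Controls were above both hucMSC-Exo libraries (0.643, 1.09, 0.549 and 0.211), an order lost without cells over 3000 genes (0.438, 0.2645, 0.549 and 0.211). Neutrophils overlapped at 1.765, 2.466, 2.438 and 2.026 with Cenpa. Without cells over 3000 genes both Controls were above both hucMSC-Exo libraries there (3.375, 2.648, 2.438 and 2.12), an order lost once Cenpa was also left out (2.75, 1.148, 1.812 and 1.407). DETC overlapped at 1.19, 2.04, 1.78 and 1.91 with Cenpa and 0.890, 0.969, 0.959 and 0.859 without it. No p is given for these sums or for the shares above, because they are scores over members chosen with results known.

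Among the 6 classes fitted, the sums of S-phase members were without overlap between groups only in monocytes/macrophages. In DETC the S-phase members summed to 665, 342, 608 and 370.3 CPM, high in Control 1 and hucMSC-Exo 1 and low in the other 2 libraries, again as the letters group them. In IL-17 γδ T cells they summed to 792, 616, 637 and 560.3 CPM and in αβ T cells to 844, 497, 717 and 709 CPM, with the groups overlapping in both. Monocytes/macrophages stood at 257, 379, 241 and 199 CPM, where both Controls were above both hucMSC-Exo libraries. NK cells had the highest sums of the 6 classes in each library, 1013, 961, 1348 and 991 CPM. Without cells over 3000 genes monocytes/macrophages kept their order (210, 201, 153 and 178 CPM), while in NK cells (963, 517.5, 1348 and 991 CPM) and neutrophils (87.1, 73.2, 104 and 91.4 CPM) both hucMSC-Exo libraries were then above both Controls.

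Whether the group difference itself differs between IL-17 γδ T cells and DETC was tested as an interaction. Of 38 members tested edgeR called 0, against 1 of 8362 genes (0.0120%), with 294 genes and 2 members at an unadjusted p under 0.05. These were Cenpf, at log2 2.06 (SE 0.77, unadjusted p = 0.0116, adjusted p = 1.00), and Mcm7, a helicase subunit, at log2 −1.24 (SE 0.57, unadjusted p = 0.0366, adjusted p = 1.00). Mcm7 was at 42.0, 36.2, 29.5 and 21.2 CPM in IL-17 γδ T cells and 29.6, 13.4, 27.2 and 29.1 CPM in DETC. Both Controls were above both hucMSC-Exo libraries in the IL-17 class, an order lost without cells over 3000 genes (27.2, 16.97, 29.5 and 17.4 CPM), and the groups overlapped in DETC. The called gene was Hsph1, a heat shock protein outside the set, at log2 −1.80 (SE 0.32, adjusted p = 0.0319). DESeq2 called 0 genes, with 43 genes and 0 members at an unadjusted p under 0.05. Without Control 2, where the lone Control is assumed to vary like the other group, Cenpf was called (log2 8.94, SE 2.33, adjusted p = 0.0499), a ratio without an upper bound, because Control 1 had 0 UMIs of it in IL-17 γδ T cells.

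Promoter sequences of 36 of the 44 members were matched by symbol to RefSeq windows of build GRCm38.p6, from 250 bases before to 50 after the start of transcription, and compared with those of 27025 symbols. Motifs were searched on both strands as CHR (TTTGAA or TTCGAA, read before mitosis), CCAAT (bound by NF-Y) and E2F (TTTCCCGC, TTTGGCGC, TTTCGCGC or TTTGCCGC), with overlaps allowed. CCAAT was in 31 of the 36 members (86.1%) and in 41.1% of all symbols. CHR was in 20 (55.6%) against 21.7%, and E2F in 8 (22.2%) against 2.61%. The phases differed in kind. Of the 20 matched G2/M members 16 (80%) held CHR and 1 held E2F, while of the 14 matched S-phase members 2 held CHR and 7 (50%) held E2F. These genes are known for such elements, and a match is a description of letters, not of binding.

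The 250 bases upstream of 4 members called between IL-17 γδ T cells and DETC are shown, 2 of mitosis and 2 of replication, because they hold the motifs of each kind. They were chosen after the matches were seen. Capitals mark the motifs on either strand, and overlapping matches run together. The windows are Mki67 at chr7:135716380-135716629 (minus strand), Top2a at chr11:99024190-99024439 (minus strand), Mcm5 at chr8:75109259-75109508 (plus strand) and Mcm6 at chr1:128359706-128359955 (minus strand), each written 5′ to 3′ on the strand of its gene. Mki67 and Top2a hold 2 and 4 CHR matches and no E2F match, and Mcm5 and Mcm6 hold 2 and 3 E2F matches and no CHR match.
Mki67: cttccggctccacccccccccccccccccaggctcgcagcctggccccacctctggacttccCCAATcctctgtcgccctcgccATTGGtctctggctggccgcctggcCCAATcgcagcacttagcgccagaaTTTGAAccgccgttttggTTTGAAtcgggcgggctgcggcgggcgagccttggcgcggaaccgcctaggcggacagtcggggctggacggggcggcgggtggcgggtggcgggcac
Top2a: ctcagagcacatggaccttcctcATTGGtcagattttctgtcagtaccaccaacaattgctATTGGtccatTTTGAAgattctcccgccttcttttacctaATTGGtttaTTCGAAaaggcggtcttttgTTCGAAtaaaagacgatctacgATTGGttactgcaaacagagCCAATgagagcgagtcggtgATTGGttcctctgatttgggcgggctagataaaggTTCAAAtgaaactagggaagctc
Mcm5: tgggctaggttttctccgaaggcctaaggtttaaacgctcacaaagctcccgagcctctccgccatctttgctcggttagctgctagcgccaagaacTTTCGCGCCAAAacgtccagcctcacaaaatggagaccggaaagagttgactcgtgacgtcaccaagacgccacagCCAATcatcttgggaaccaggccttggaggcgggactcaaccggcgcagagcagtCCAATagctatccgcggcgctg
Mcm6: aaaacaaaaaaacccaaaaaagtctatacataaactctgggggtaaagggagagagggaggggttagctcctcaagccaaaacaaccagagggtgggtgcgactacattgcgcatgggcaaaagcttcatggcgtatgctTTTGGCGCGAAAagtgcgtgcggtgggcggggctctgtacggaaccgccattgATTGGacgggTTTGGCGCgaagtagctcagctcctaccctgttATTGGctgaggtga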

How the data were processed

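The values are UMI counts per gene and cell, which the authors deposited after alignment to mm10 with Cell Ranger 6.1.2, and nothing was aligned again. The study states several times as many cells a mouse as the files hold barcodes. Cells with 200 or more detected genes and a mitochondrial share of at most 10% were kept, with no upper limit on genes. A class needed UMIs of at least 2 of its 6 markers and more than any other class. Scrublet marked 31 of 6972 cells (0.445%), too few to count as having worked, so no cell was left out as a doublet. For the fits, counts were summed per library and class where it had 10 or more cells. Levels and class means had no such minimum. They include dendritic cells of Control 1 (5 cells) and hucMSC-Exo 1 (9 cells) and ILC2 of Control 1 (5 cells). edgeR 4.0.16 in R 4.3.3 (filterByExpr, TMM, quasi-likelihood F test) gave p-values with Benjamini-Hochberg adjustment over all genes tested, with the library as a block between classes, and a gene is called at an adjusted p under 0.05. DESeq2 1.42.0 was the second test, and scanpy 1.11.5 and scipy 1.17.1 were used in Python 3.11.15. Members and lists were chosen with earlier results of these data known. The exact permutation p named in the design for the shares is therefore not printed. Other cell cycle genes named are the 5 called genes with the largest absolute log2 ratio in a comparison.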

Additional observations from a re-analysis of the deposited data

Results flagged for a closer look

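Hsph1 was picked out because the hucMSC-Exo to Control ratio differed between IL-17 γδ T cells and DETC in the test of the difference itself. edgeR gave log2 −1.80 (SE 0.32, adjusted p = 0.0319) for the first ratio minus the second. The sign held in 12 of 12 alternatives, most of them chosen after the data were seen, and the call in 9. It was lost with DESeq2 (log2 −1.78, adjusted p = 1.00), without cells of a second lineage (log2 −1.76, adjusted p = 0.0739) and without hucMSC-Exo 2 (log2 −1.70, adjusted p = 0.399). Hsph1 stood at 216, 110.3, 46.4 and 99.4 CPM in IL-17 γδ T cells and at 240.1, 116, 159 and 386 CPM in DETC. Both hucMSC-Exo libraries were below both Controls in the IL-17 class, while the groups overlapped in DETC. It is not one of the 44 members, and no member was picked out by any of these rules.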

How the results depend on the processing

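No p is given for the difference in the share of cells with 3 or more members, hucMSC-Exo minus Control, and its sign was not stable. It was −6.75 points over all kept cells and 1.05 when thinned to 1500 UMIs. In IL-17 γδ T cells it was 1.23, with −1.64 for 2 or more members and −0.829 without Stmn1, Hmgb2 and Tubb4b. In DETC it was 2.52, with −0.487 for 2 or more members, −0.476 for 5 or more, −0.0617 for 10 or more and −0.212 for 10 or more after thinning. In αβ T cells it was −3.01, with 0.536 without those 3 genes, 5.86 thinned, 1.78 for 10 or more members, 2.41 for 5 or more after thinning and 0.0853 for 10 or more after thinning. In dendritic cells it was −0.0397, with 5.20 thinned, 0 for 5 or more and 0 for 10 or more after thinning, 2.64 without cells over 3000 genes, 4.52 without cells of a second lineage and 1.27 with 3 markers. Neutrophils went from −3.78 to 0.543 for 5 or more members. NK cells went from −9.01 to 1.97 thinned and 0.472 for 5 or more after thinning, and ILC2 from −16.7 to 0.767 thinned. The cause was not tested.

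Leaving out a library in turn gave share differences from −12.9 to −0.646 over all kept cells, from −0.449 to 2.90 in IL-17 γδ T cells, from −4.32 to 9.36 in DETC and from −5.34 to −0.672 in αβ T cells. In the IL-17 class the sign changed to −0.449 without Control 2 and −0.293 without hucMSC-Exo 2, and in DETC to −4.32 without Control 2 and −1.57 without hucMSC-Exo 1. The range was −19.0 to −3.40 in monocytes/macrophages, −7.33 to −0.224 in neutrophils and −9.91 to −8.10 in NK cells. In dendritic cells it was −6.11 to 6.03, with 6.03 without Control 1 and 3.85 without hucMSC-Exo 2, and in ILC2 −34.7 to 1.28, the last without Control 1.

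Between hucMSC-Exo and Control edgeR called 0 genes in each population. DESeq2 called 2 over all kept cells, 1 in DETC, 1 in αβ T cells and 1 in NK cells. With no filter on low counts the calls were 29 over all kept cells, 13 in IL-17 γδ T cells, 51 in DETC, 49 in αβ T cells, 33 in monocytes/macrophages, 3 in neutrophils, 16 in NK cells and 6 in the interaction. A stricter gate of 3 markers gave 1 call in NK cells. Leaving out a library, with the lone library of a group assumed to vary like the other group, gave 0 to 2 calls over all kept cells, 0 to 86 in IL-17 γδ T cells, 22 to 141 in DETC, 26 to 254 in αβ T cells, 0 to 3 in monocytes/macrophages, 0 to 201 in neutrophils, 2 to 14 in NK cells and 4 to 22 in the interaction, where 1 gene was called with all 4 libraries. The median of all genes in the interaction was log2 0.01, against −0.12 with DESeq2 and 0.19 with no filter on low counts. It had 0 calls with DESeq2, 2 with library sizes only, 9 without cells over 3000 genes, 9 with 3 markers and 0 without cells of a second lineage.

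A replicate block, which pairs Control 1 with hucMSC-Exo 1 and Control 2 with hucMSC-Exo 2, gave 33 calls in DETC and 1 in neutrophils. The crossed replicate block gave 16 calls in monocytes/macrophages and 0 in NK cells. The titles give these pairs only a shared number, but letters in the file names place the same libraries together, as groups, so if the letters are right this block holds the treatment. The correlation of deviations within pairs was −0.388 in monocytes/macrophages and between −0.105 and 0.03 in the other populations.

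Between classes, IL-17 γδ T cells and DETC gave 3179 calls, 1713 after thinning and 2561 to 3201 with a library left out. IL-17 γδ T cells and αβ T cells gave 1291, with 802 by DESeq2, 602 after thinning and 884 to 1351 with a library left out. Monocytes/macrophages and neutrophils gave 4084, with 2714 to 4606. The 21 calls, of 16 members, had 263 values under alternatives, of which 207 were called with the same sign, 56 had the same sign and were not called, 14 of them with a log2 ratio as large as the first or larger, and 0 were reversed. With a library left out, the log2 ratios of IL-17 γδ T cells to DETC ran from 0.80 to 1.21 for Cdca8, from 0.85 to 0.98 for Hmgb2, from 0.97 to 1.33 for Mcm3, from 0.75 to 1.06 for Mcm5, from 0.56 to 0.81 for Mcm6, from 1.00 to 1.57 for Mki67, from 1.10 to 1.91 for Pclaf, from −0.69 to −0.46 for Rrm1, from 0.61 to 1.56 for Rrm2, from 0.57 to 0.95 for Stmn1 and from 0.50 to 0.95 for Top2a. Those of IL-17 γδ T cells to αβ T cells ran from 0.65 to 0.82 for Cenpa, from −1.12 to −0.76 for Kif23 and from −0.63 to −0.36 for Mcm6. Those of monocytes/macrophages to neutrophils ran from 0.69 to 1.07 for Cenpa, from −2.22 to −2.02 for Hmgb2, from −3.23 to −2.73 for Kif23, from 0.76 to 1.12 for Pcna and from −1.18 to −0.56 for Tubb4b. No range is given for Mcm3 and Mcm4, because nothing is read from their calls between these classes. The ranges of Cdca8, Mcm5 and Rrm2 against DETC, and of Kif23 against αβ T cells, are values only. Nothing is read from those calls either.

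Chosen after the data were seen were the counts of 10 or more members, the thinned counts of 5 or more and 10 or more, the filter on a second lineage, the crossed replicate block, the alternatives of the interaction other than those on low counts and doublet calls, the comparisons of αβ T cells and NK cells with DETC, and the limit of 3000 genes on the G2/M to S ratios, on the levels of members and on the counts beside Top2a.

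Limits are these. With 2 libraries a group, a difference between groups cannot be told apart from a difference between mice or libraries. Class gates rest on few markers, and free RNA was not removed. Lck was seen in 2.91% of the IL-17 class, and 21.3% of the NK class held Trdc. Low members have few UMIs per class, so a value of 0 is an upper limit. Cells with many members are deeper, and droplets with 2 cells were not removed.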
